A study of Mus musculus with 6 samples.

Results

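The cytosolic ribosomal protein genes of mouse GP muscle were compared between bulk RNA-Seq libraries labelled Ctrl and cKO. Members were the genes whose symbol begins with Rpl or Rps and a digit, together with Rpsa, Rplp0, Rplp1, Rplp2 and Fau, leaving out the S6 kinase genes (Rps6k) and symbols with -ps, which mark pseudogenes. The rule found 89 members among 24421 genes, and 84 of them were among the 14180 genes with enough counts to be tested. By their known products, 46 members encode proteins of the large subunit and 32 proteins of the small subunit, and these 78 are called subunit genes here. A further 8 are paralogs of a subunit gene and 2 are retrogenes (Rpl37rt and Rps27rt). Rps19bp1 matched the pattern but encodes a protein that binds RPS19 and regulates SIRT1, not a ribosomal protein.

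The study deleted Net39, a gene for a muscle protein of the nuclear envelope, in adult mice. The labels give B6C3F1 as the strain background, and by the study's methods B6C3F1 zygotes were edited and the founders were then mated to C57BL/6N mice and the floxed line to HSA-CreERT2 mice. Per the labels, the Ctrl libraries came from Net39 fl/fl mice without Cre and the cKO libraries from Net39 fl/fl mice with HSA-CreERT2, 3 mice in each group, all aged 5 months and all 3 months past tamoxifen. HSA-CreERT2 is driven by the human skeletal actin promoter, which is active in muscle fibres and not in satellite cells, while the RNA was taken from the whole muscle. The transcript of Net39, listed as Ppapdc3, went against these labels. Mice 1 to 3 had 310, 321 and 217 counts under the label Ctrl and 5365, 4340 and 6080 counts under the label cKO. The libraries are therefore named by their labels throughout, every log2 fold change is that of cKO-labelled libraries over those labelled Ctrl, and no direction is read as an effect of losing Net39.

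A cytosolic ribosome consists of a large and a small subunit, which are put together from ribosomal proteins and ribosomal RNA in the nucleolus. The mRNAs of ribosomal proteins begin with a run of pyrimidines, the 5′ terminal oligopyrimidine (TOP) motif, through which mTORC1 and LARP1 control their translation as a group. In striated muscle Rpl3l, a muscle-specific paralog, takes much of the place of Rpl3, and the amount of ribosomes is tied to muscle growth and wasting.

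The run of pyrimidines could be seen in the genome at the annotated starts of some of the genes. Windows of 250 bases before to 50 bases after the start were read from RefSeq (GRCm38.p6) for 58 of the 78 subunit genes. The following stretches of 30 bases, from 10 bases before the start onward on the strand of the gene, were chosen because they carry the run, with Rpl3l, which does not, set beside them. Capitals mark a C followed by at least 7 C or T.
Fau, chr19:6057937-6057966, plus strand: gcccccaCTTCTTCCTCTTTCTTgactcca
Rps6, chr4:86857348-86857377, minus strand: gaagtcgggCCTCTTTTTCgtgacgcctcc
Rpl15, chr14:18270967-18270996, minus strand: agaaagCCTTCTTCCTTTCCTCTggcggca
Rpl35a, chr16:33056472-33056501, plus strand: gcttgCCTTCCTCTTTCCgccatcttggcg
Rpl7a, chr2:26910797-26910826, plus strand: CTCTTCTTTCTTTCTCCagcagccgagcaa
Rpl3l, chr17:24727816-24727845, plus strand: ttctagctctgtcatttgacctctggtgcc
Within such a stretch of 30 bases, 24 of the 58 subunit genes had the run at one or more of their listed starts and the others did not, among them Rpl4, Rpl12 and Rps13. Rpl35a also has listed starts without it. A C followed by at least 7 C or T lay within 50 bases of the start on the gene's strand in 49 of the 58 subunit genes (84.5%), and in 32.0% of the 27025 genes with a window. A C at the annotated start itself followed by at least 4 C or T was rarer, in 24.1% of the subunit genes and 3.01% of all genes. The letters CCGGAA, the core of ETS factor motifs, were found on either strand in 55.2% of the subunit genes and 16.7% of all genes. AAGATGG, part of the motif of YY1, was found on either strand in 17.2% and 7.28%. TATAAA was found on the gene's strand in the 50 bases before the start in 0 of the 58 subunit genes, and in 3.15% of all genes. These matches describe the letters in the windows and were not tied to any measured binding.

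Most members were expressed at high levels, though the range was wide. Levels between genes are given as CPM (counts scaled to the library size with TMM factors, which correct for the makeup of a library) per kb of transcript, as means over the 6 libraries. The median was 175 CPM per kb in the 44 large subunit genes tested and 209 CPM per kb in the 32 small subunit genes. The highest levels were those of Rplp1 with 647 CPM per kb, Rplp0 with 532 and Rps15 with 501. Rplp0 and Rplp1 belong to the stalk of the large subunit, where elongation factors bind, and Rps15 to the head of the small subunit. At the low end stood Rpl34 with 5.61, Rps4l with 2.78 and Rps27 with 1.69 CPM per kb. Levels per kb rest on the transcript chosen for each gene, which for Rps15a, at 25.4 CPM per kb, had 5130 bases. Of the members not tested, Rpl10l, Rpl26 and Rps27rt had 0 counts in all 6 libraries, Rpl30 had 1 to 5 counts per library and Rpl39l had 0 to 3. Rpl26, Rpl30, Rpl34 and Rps27 encode core proteins of the ribosome, and the cause of their low counts was not tested.

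Many members share sequence with processed pseudogenes, which limits how firmly a count can be given to 1 gene. For each member, the stretches of 75 bases (the read length) in its main GENCODE transcript were looked up in the transcripts of all other genes. The median member had 51.5% of its stretches to itself, 20 members had 25% or less and 16 had 90% or more. Rpl3l had 100% and Rpl3 16.8%, with matches to 8 pseudogenes. Rps27 had 1.48%. Across the 76 subunit genes tested, the Spearman correlation of this share with the CPM per kb was 0.079, given as a description, since all points share the same 6 libraries. Rpl26 had 42.5% and Rpl30 34.9%.

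**Figure D1:**
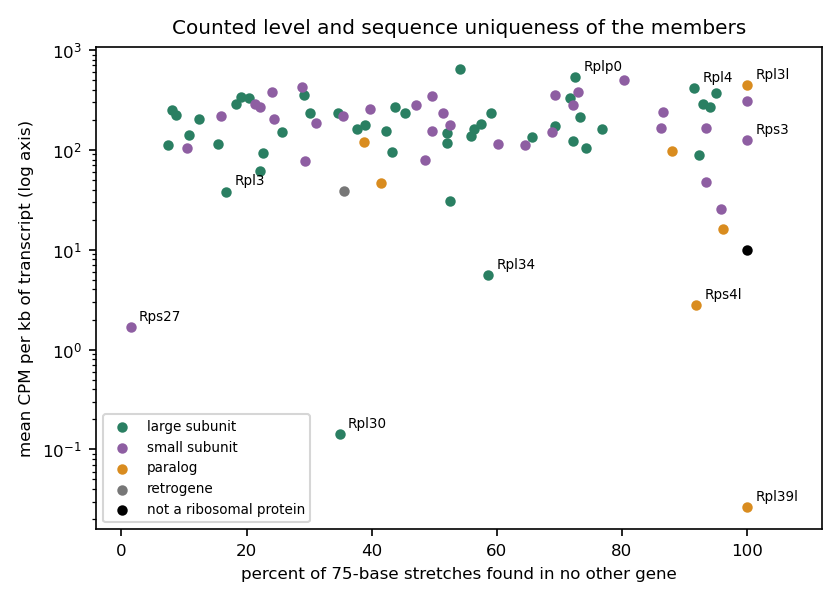
Mean CPM per kb of transcript (log axis, TMM-normalized, over the 6 libraries) against the percent of 75-base stretches of the transcript found in no other gene, 1 point per member, coloured by role. Members with 0 counts are left off the log axis. Most members lie near the medians of 175 and 209 CPM per kb at every share, while Rpl34, Rps4l, Rps27, Rpl30 and Rpl39l lie lowest. Others, such as Rps19bp1 (9.88), Rpl7l1 (16.3) and Rps15a (25.4), also lie far below the medians.

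The first question was whether the ribosomal protein genes as a group stood at another level in cKO-labelled libraries, and the answer turned on the scaling. As a share of all counts, the members made up 1.51%, 1.48% and 1.44% in Ctrl-labelled libraries and 1.28%, 1.35% and 1.29% in cKO-labelled ones. The shares were lower in every library labelled cKO. With TMM scaling, the summed CPM was 13601, 13647 and 13358 in Ctrl-labelled libraries and 14774, 13706 and 14278 in cKO-labelled ones. Here every library labelled cKO was higher, so the direction reversed. TMM gave factors of 1.08 to 1.11 under the label Ctrl and of 0.865 to 0.983 under the label cKO. Beside this, the 20 most abundant genes took 19.8% to 23.6% of the counts in the former and 28.4% to 32.0% in the latter. No direction is therefore given for the group as a whole. The summed CPM of the large subunit genes was 7246 to 7485 in Ctrl-labelled libraries and 7569 to 8058 in cKO-labelled ones, without overlap under TMM. That of the small subunit genes was 5359 to 5416 and 5314 to 5780, and the groups overlapped.

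**Figure D2:**
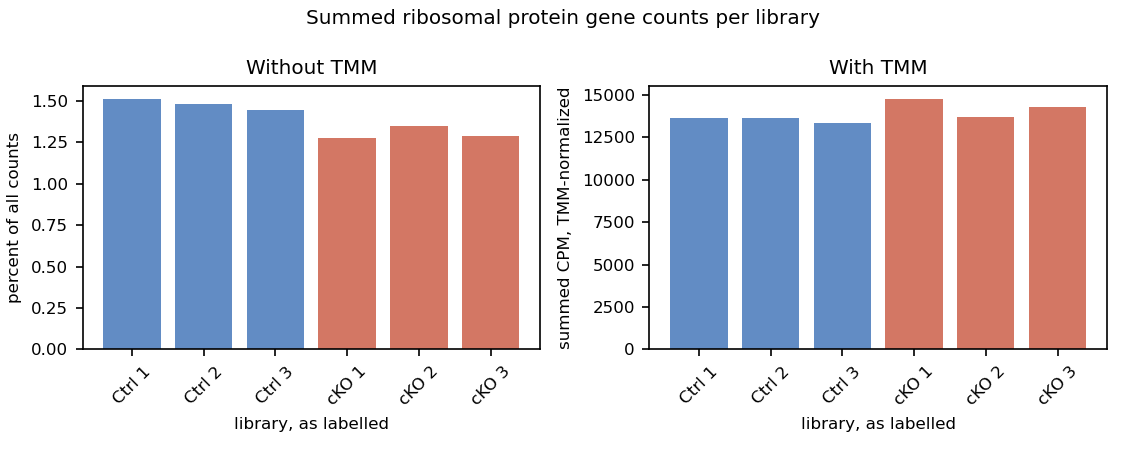
Summed counts of the 89 members in each library, as percent of all counts on the left and as TMM-normalized CPM on the right, with 1 bar per library. Ctrl-labelled libraries (blue) are higher on the left, at 1.44% to 1.51% against 1.28% to 1.35%, and lower on the right, at 13358 to 13647 CPM against 13706 to 14774.

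Gene by gene with TMM, the members differed little between the groups. Of the 84 tested, 10 (11.9%) passed an adjusted p of 0.05 in edgeR's quasi-likelihood test, 7 higher in cKO-labelled libraries and 3 higher in Ctrl-labelled ones, while 24.4% of all genes tested passed, 12.6% and 11.8% in these directions. With the libraries scaled by total counts instead, the same test called 0 members higher in cKO-labelled libraries and 25 higher in Ctrl-labelled ones (0 and 39 at an unadjusted p under 0.05), while DESeq2 with its own size factors called 8 and 3, so the direction of the counts depends on the scaling. Among the 3174 genes at or above the 10th percentile of the members' CPM, with no upper limit (called abundant genes here), 36.9% passed. With a fold change over 2 as well, 1 member (Rpl3) passed, and 6.05% of all genes did. The groups did not overlap in 37 members (44.0%), in 43.9% of all genes and in 56.7% of the abundant genes.

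The log2 fold changes of the members ran from -1.01 to 0.64 with a median of 0.08 (all genes, -0.02, and the abundant genes, 0.11). Of these, 55 were above 0 and 29 below. In 67 of the 84 members the log2 fold change lay within 0.25 of 0. The median size of the log2 fold change was 0.11 for the members and 0.27 for all genes. The standard errors were small too, with a median of 0.08 against 0.14. In 72 members (85.7%) the 95% interval of the fold change lay within 1.5-fold in either direction, as it did in 45.2% of all genes. Differences of over 1.5-fold were thus outside the interval for most members in these 6 libraries. In total, 7 of 44 large subunit genes (15.9%), 2 of 32 small subunit genes (6.25%) and 1 of 6 paralogs (16.7%) passed the test. Each share was under the 24.4% of all genes.

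**Figure D3:**
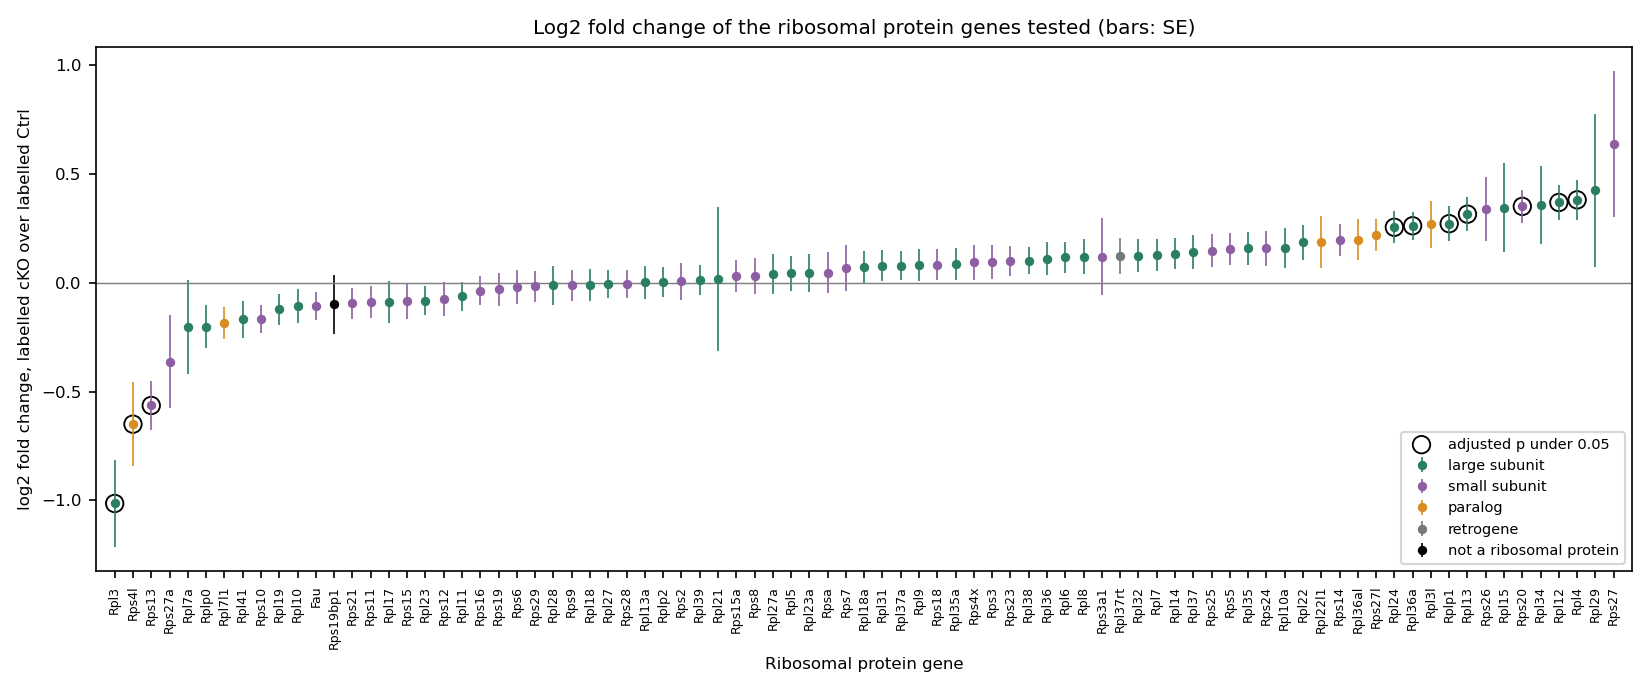
Log2 fold change (labelled cKO over labelled Ctrl, TMM) of the members tested (1 of the 84 is not shown), in order of size, with bars of 1 SE and coloured by role. Rings mark the 10 members with an adjusted p under 0.05, of which Rpl3 at -1.01, Rps4l and Rps13 lie below 0 and 7 lie between 0.26 and 0.38.

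The member that differed most was Rpl3, a large subunit protein near the peptidyl transferase centre. Its CPM was 79.4, 76.0 and 51.7 in Ctrl-labelled libraries and 38.6, 26.5 and 37.5 in cKO-labelled ones. All 3 libraries labelled Ctrl were above all 3 labelled cKO, with Ctrl 3 nearest to them. The means were 69.0 ± 15.1 and 34.2 ± 6.64 CPM (SD, n = 3), a log2 fold change of -1.01 (SE 0.20, adjusted p = 0.0136 in edgeR). Without Ctrl 1 the adjusted p was 0.051. Rpl3l, the muscle paralog of Rpl3, had a CPM of 528, 601 and 544 in Ctrl-labelled libraries and 732, 601 and 685 in cKO-labelled ones. The groups met at Ctrl 2 and cKO 2, and the log2 fold change of 0.27 (SE 0.11, 95% interval 0.02 to 0.53) did not pass the test over all genes (adjusted p = 0.112 in edgeR).

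Rpl3l made up most of the pair in every library. Per length of transcript, it was 86.7%, 88.6% and 91.2% of the sum of Rpl3 and Rpl3l in Ctrl-labelled libraries and 94.9%, 95.7% and 94.7% in cKO-labelled ones. The shares did not overlap (88.8% ± 2.25 and 95.1% ± 0.514, SD, n = 3, exact permutation test, two-sided p = 0.1, the smallest that 3 against 3 allows). A share within the pair does not depend on the scaling of the libraries. How reads that Rpl3 shares with its pseudogenes were counted is not given in the sources used here.

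Rps13, a protein of the small subunit, was the other subunit gene that was higher in Ctrl-labelled libraries. It had a CPM of 203, 214 and 184 in these and 155, 126 and 126 in cKO-labelled ones. The groups did not overlap, and the log2 fold change was -0.56 (SE 0.11, adjusted p = 0.0133 in edgeR). It lost its call without Ctrl 2 (adjusted p = 0.0521) and without cKO 3 (adjusted p = 0.0532). Of its stretches 21.4% were found in no other gene. Rps4l, a retrocopy of Rps4x that GENCODE lists as a transcribed processed pseudogene, was low throughout, with a CPM of 2.86, 2.92 and 2.24 in Ctrl-labelled libraries and 1.89, 1.45 and 1.77 in cKO-labelled ones. All libraries labelled Ctrl were higher, by a log2 fold change of -0.65 (SE 0.19, adjusted p = 0.0473 in edgeR), close to the threshold. Its source gene Rps4x, on the X chromosome, had 261 to 268 and 262 to 295 CPM.

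The 7 members that were higher in cKO-labelled libraries differed by less than Rpl3 and Rps13. Rpl4, which reaches into the exit tunnel of the large subunit, had a CPM of 542, 562 and 569 in Ctrl-labelled libraries and 780, 677 and 724 in cKO-labelled ones. The 3 libraries labelled cKO were all higher, with a log2 fold change of 0.38 (SE 0.09, adjusted p = 0.0249 in edgeR), and 91.5% of its stretches were its own.

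Rps20, a protein of the small subunit's head that is also known to bind MDM2, was among the other members with the smallest p. Its CPM was 154, 152 and 158 in Ctrl-labelled libraries and 207, 190.1 and 195 in cKO-labelled ones. Again all 3 libraries labelled cKO were higher, by a log2 fold change of 0.35 (SE 0.07, adjusted p = 0.0165 in edgeR), and 93.4% of its stretches were its own. Rpl12, of the base of the stalk, had a CPM of 124, 128 and 132 against 176, 153 and 167, without overlap. Its log2 fold change was 0.37 (SE 0.08, adjusted p = 0.0188 in edgeR), and 52.1% of its stretches were its own.

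Rpl13, Rpl36a and Rpl24 are further proteins of the large subunit, and Rplp1 is an acidic protein of its stalk. Rpl13 had a CPM of 219 to 237 in Ctrl-labelled libraries and 276 to 296 in cKO-labelled ones (log2 fold change 0.32). Rpl36a had 48.1 to 51.7 and 59.4 to 60.9 CPM (0.26). Rpl24 had 205 to 212 and 238 to 257 CPM (0.26), and Rplp1 had 285 to 306 and 337 to 369 CPM (0.27). The groups did not overlap in any of the 4, and their adjusted p in edgeR ran from 0.0272 to 0.0483. The share of stretches found in no other gene was 20.4% for Rpl13, 15.4% for Rpl36a, 19.1% for Rpl24 and 54.1% for Rplp1. All 7 calls were lost when the libraries were scaled by total counts, where the median of all genes shifted to -0.27, and the log2 fold change of Rpl24 then was -0.0006. The calls of Rps13, Rpl3 and Rps4l held under that scaling. In 71.5% of its length the transcript of Rpl24 overlaps exons of a read-through gene, Gm28037.

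**Figure D4:**
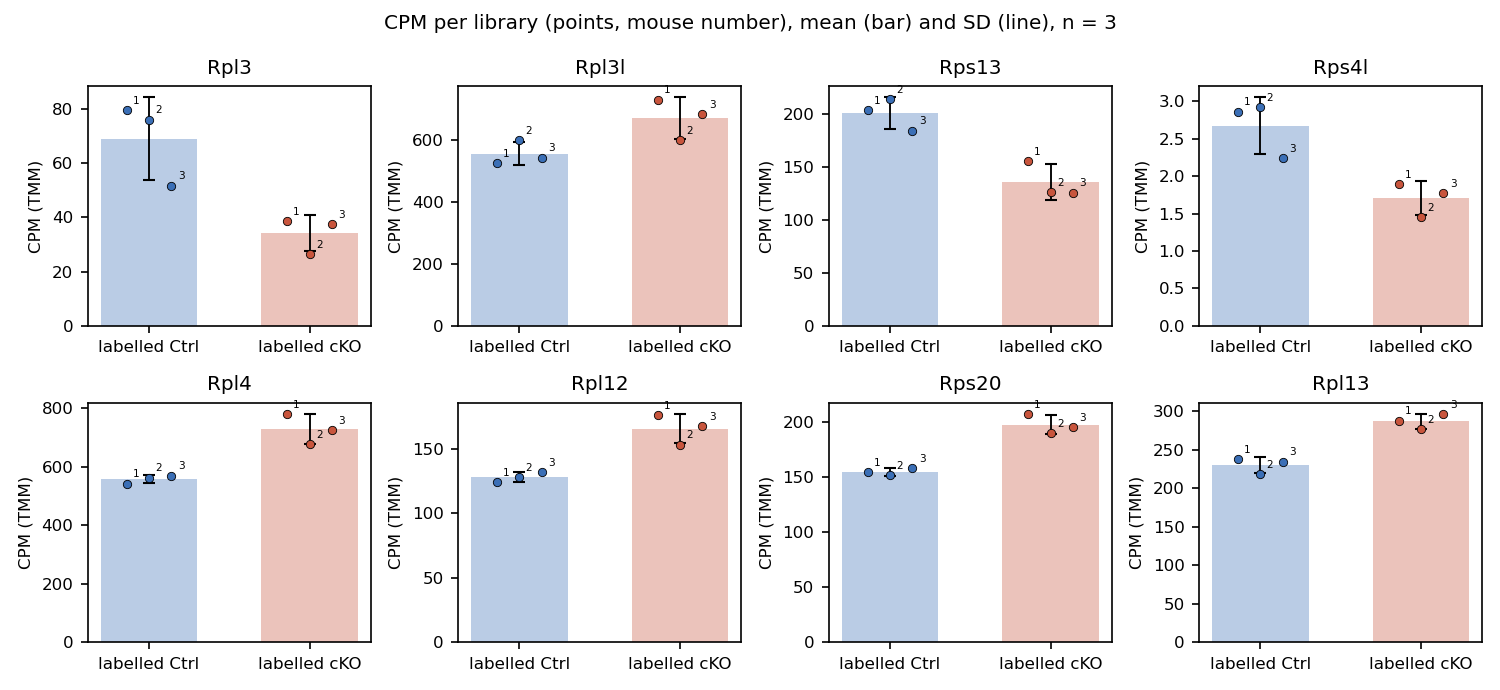
TMM-normalized CPM of 8 members in each library (points, numbered by mouse), with the mean (bar) and SD (line) of the 3 libraries labelled Ctrl (blue) and the 3 labelled cKO (red). Rpl3, Rps13 and Rps4l are lower in all libraries labelled cKO, Rpl4, Rpl12, Rps20 and Rpl13 are higher in all, and Rpl3l overlaps at 601 CPM.

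The calls depended on single libraries more than the fold changes did. Of the 10 members called, 0 kept their call in each of the 6 fits that left out 1 library. Without Ctrl 1, Ctrl 2 or cKO 3 a single member was called, without cKO 1 there were 2, without cKO 2 there were 7, of which 6 were among the 10, and without Ctrl 3 there were 9, of which 8 were. Over the same fits the log2 fold change of Rpl3 ran from -1.18 to -0.88, that of Rpl4 from 0.32 to 0.42, that of Rps20 from 0.30 to 0.37 and that of Rpl12 from 0.31 to 0.41. The calls over all genes fell too, to 766 at the lowest from 1786 higher in cKO-labelled libraries.

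Of the 3 stalk genes, Rplp1 alone passed the test, and the differences between them were not tested. Rplp0, the anchor of the stalk, had a CPM of 813, 794 and 712 in Ctrl-labelled libraries and 719, 641 and 656 in cKO-labelled ones. Ctrl 3 lay just under cKO 1, and the log2 fold change of -0.20 (SE 0.10, adjusted p = 0.176 in edgeR) did not pass the test. Rplp2, the partner of Rplp1, had 151 to 161 and 157 to 158 CPM, with a log2 fold change of 0.01. Rpsa, of the small subunit and also known as the laminin receptor, had 346 to 395 and 350.0 to 397 CPM. Fau, which encodes a ubiquitin-like protein fused to the small subunit protein S30, had 105 to 107 and 97.4 to 99.99 CPM, without overlap, at a log2 fold change of -0.11 (adjusted p = 0.27 in edgeR).

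Rps6, the target of S6 kinase, had a CPM of 195, 191 and 187 in Ctrl-labelled libraries and 199, 178 and 188 in cKO-labelled ones. The groups overlapped, and the 95% interval of the log2 fold change ran from -0.20 to 0.16. Rpl5 and Rpl11 form the 5S RNP, which binds MDM2. Rpl5 had a CPM of 222 to 226 and 216 to 247, and its log2 fold change of 0.04 had an interval of -0.15 to 0.24. Rpl11 had 148 to 151 and 143 to 144 CPM and a log2 fold change of -0.06 (adjusted p = 0.532 in edgeR), without overlap. Genes that are mutated in Diamond-Blackfan anaemia, a failure of red cell production, include Rps19 at a log2 fold change of -0.03, Rpl35a at 0.09, Rps24 at 0.16 and Rps26 at 0.34. Their adjusted p in edgeR ran from 0.137 to 0.806. Rps14, which is lost in the 5q- syndrome, had a CPM of 204 to 221 and 239 to 244, without overlap (log2 fold change 0.20, adjusted p = 0.0962 in edgeR). Of these genes of ribosomal disease and of MDM2 binding, Rps20 alone passed the test.

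Of the 6 paralogs tested, Rps4l alone passed the test. Besides Rpl3l, the paralogs were the smaller part of their pair except for Rps27l and for Rpl36al, which was about even with Rpl36a. Rpl7l1, which acts in ribosome biogenesis, was 7.20%, 7.11% and 7.34% of its pair with Rpl7 per length in Ctrl-labelled libraries and 5.79%, 6.41% and 5.50% in cKO-labelled ones. These shares did not overlap (exact permutation test, two-sided p = 0.1, the smallest that can be reached), while the CPM of Rpl7l1 gave a log2 fold change of -0.18 (adjusted p = 0.109 in edgeR) and that of Rpl7 0.13 (adjusted p = 0.23 in edgeR). Rpl22l1 was 13.0% to 15.4% of its pair with Rpl22 in Ctrl-labelled libraries and 11.9% to 15.4% in cKO-labelled ones. Rpl36al was 50.2% to 53.7% and 49.4% to 52.5% of its pair with Rpl36a. Rpl37rt was 26.9% to 27.6% and 26.3% to 27.7% of its pair with Rpl37. These 3 pairs overlapped between the groups. Of their stretches, Rpl22 had 93.0% to itself and Rpl22l1 41.4%. Rpl36a had 15.4% and Rpl36al 38.7%, and Rpl37 had 74.2% and Rpl37rt 35.6%. The split within a pair is limited by this and by the transcript lengths used, 835 bases for Rpl37 and 408 for Rpl37rt. Rps27l was over 97.8% of its pair with Rps27, whose own count is near 0. As a level, Rps27l had 41.9 to 47.1 and 51.6 to 54.5 CPM, with a log2 fold change of 0.22 (adjusted p = 0.0719 in edgeR).

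The ratio of the highest to the lowest of the 6 libraries had a median of 1.17 over the 84 members, and 12 exceeded 1.5. In 4 of these (Rpl3, Rps4l, Rps13 and Rpl34) the groups did not overlap, and in 8 they did, so that mice of 1 group differed as well. Rpl29 had a CPM of 84.6, 39.8 and 47.8 in Ctrl-labelled libraries and 46.0, 98.1 and 87.5 in cKO-labelled ones. It was high in Ctrl 1, cKO 2 and cKO 3, and so in both groups. Rpl21 had 40.7, 21.02 and 20.7 CPM against 22.0, 39.5 and 22.0, high in Ctrl 1 and cKO 2 and nearly level in the other 4. Rps27a had 44.4, 44.6 and 76.4 CPM against 39.4, 44.3 and 44.9, so that Ctrl 3 alone was high. Rpl15 had 88.8, 86.3 and 147 CPM against 143, 130.1 and 137, so that Ctrl 1 and Ctrl 2 were low. Rpl7a had 82.8, 115 and 75.5 CPM against 102, 68.8 and 66.8, with Ctrl 2 and cKO 1 high. Stretches of Rpl29 were found in 42 pseudogenes, of Rpl21 in 60, of Rpl7a in 64, of Rpl15 in 17 and of Rps27a in 9, while Rps2, with 50, had a ratio of 1.11. The part of the shared sequence in this spread was not tested.

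**Figure D5:**
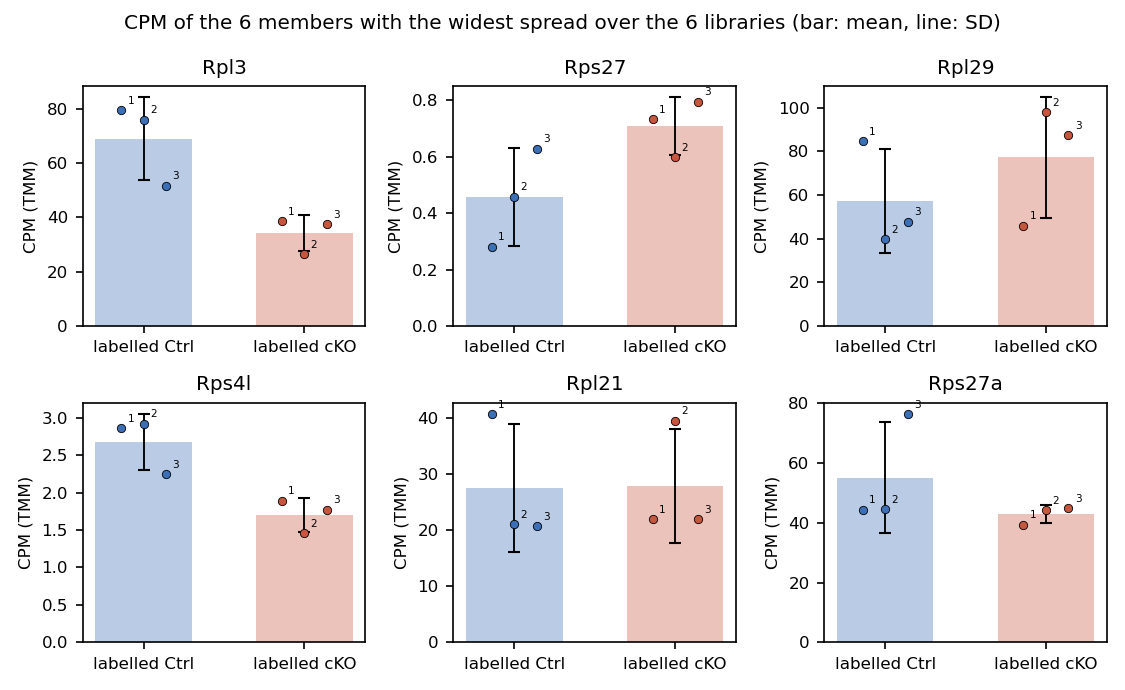
TMM-normalized CPM per library (points, numbered by mouse) of the 6 members with the largest ratio of the highest to the lowest library, with the mean (bar) and SD (line) of each group of 3. Rpl29 and Rpl21 are high in libraries of both groups, and Rps27a in Ctrl 3 alone.

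Genes that work with the ribosomal proteins were read from lists. They are set against the 24.4% of all genes, and 36.9% of the abundant genes, that passed the test. Among 10 elongation factor genes, 1 was higher in cKO-labelled libraries and 1 in Ctrl-labelled ones (20%), a share near that of all genes. Eef1a1, which brings aminoacyl-tRNA to the ribosome and whose mRNA is a TOP mRNA, had a CPM of 711, 679.6 and 702 in Ctrl-labelled libraries and 394, 429.7 and 409 in cKO-labelled ones, a log2 fold change of -0.76 (SE 0.08, adjusted p = 0.00272 in edgeR). Its level was lower in all libraries labelled cKO. Eef1a2, the form of adult muscle, had a log2 fold change of -0.22 (adjusted p = 0.221 in edgeR). Eef2k, the kinase that inhibits elongation factor 2, was higher in cKO-labelled libraries, at 0.91.

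Of 18 other genes with TOP mRNAs 5 passed (27.8%), again near the 24.4% of all genes. Of these, 4 were higher in cKO-labelled libraries, among them the initiation factor genes Eif3e at a log2 fold change of 0.45 and Eif3h at 0.28, and 1 was lower, Vim, at -0.90. Of 15 host genes of small nucleolar RNAs tested, Snhg6 at 0.56 and Snhg8 at 0.54 were higher (13.3%). Of 90 ribosome biogenesis genes, 17 were higher in cKO-labelled libraries and 1 in Ctrl-labelled ones, which is 20% of the list against 24.4% of all genes (12.6% and 11.8% by direction). The median log2 fold change was 0.18, against -0.02 for all genes and 0.11 for the abundant genes. Sdad1, needed for export of the large subunit, was at 0.47 and Dkc1, the pseudouridine synthase, at 0.42. Sbds, which frees the large subunit for its first use, was the 1 gene that was lower, with a CPM of 42.5, 41.0 and 40.0 against 23.5, 28.1 and 24.4 and a log2 fold change of -0.70 (adjusted p = 0.00365 in edgeR).

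Of 32 regulators of ribosomal protein synthesis, 8 were higher in cKO-labelled libraries and 3 in Ctrl-labelled ones, or 34.4% against 24.4% of all genes and 36.9% of the abundant ones. Larp1, which binds TOP mRNAs, was at 0.36, Eif4ebp2, a repressor of initiation, at 0.78, and Rps6kb1, the S6 kinase, at 0.45. Rptor, a subunit of mTORC1, was at -0.35 and Sesn1, which inhibits it, at -0.70. The log2 fold changes of Mtor (-0.002) and Myc (-0.52, adjusted p = 0.332 in edgeR) did not pass the test. With total counts in place of TMM, 3 genes of all these lists were higher in cKO-labelled libraries and 28 lower, so the counts in each direction depend on the scaling.

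Marker lists of fibre types and immune cells differed between the groups, and those of other cells did so less or overlapped in their sums. In a whole muscle, fewer cells of a type and less RNA per cell cannot be told apart. Of 11 slow fibre genes, 6 (54.5%) were higher in Ctrl-labelled libraries, with a summed level of 9460 to 15999 CPM against 610 to 4198 CPM. All 11 genes of fast IIb fibres were higher in cKO-labelled libraries, at 152963 to 197712 CPM against 57031 to 96644. By its single-nucleus RNA-Seq, the study reported more type I (slow) and fewer type IIb myonuclei in cKO muscle. That is a share of nuclei and not an RNA level, and under the labels here the sums ran the other way. Of 13 immune cell genes tested, 10 (76.9%) were higher in Ctrl-labelled libraries, at 212 to 239 CPM against 97.1 to 134. Of 12 genes of fibro-adipogenic progenitors, 6 (50%) were higher in Ctrl-labelled libraries, while 4 of the 12 had a log2 fold change above 0. Their sums overlapped, at 2975 to 3051 and 2076 to 2995 CPM. Of 10 endothelial genes 1 was higher in Ctrl-labelled libraries (10%, under the 24.4% of all genes), at 544 to 563 against 499 to 521. Of 7 satellite cell genes, 1 was higher in cKO-labelled libraries (14.3%, also under the share of all genes). The summed levels overlapped at 5124 to 5663 and 3976 to 6163 CPM. The 8 general myofibre genes were at 68645 to 70714 CPM and 73348 to 94570 CPM and so high in every library. Of these 8, 2 were higher in cKO-labelled libraries (25%, near the 24.4% of all genes). All 6 globin genes on the red blood cell list were listed at 0 in every library. The part of these differences in the values of Rpl3, Rps13 and the 7 higher members was not tested.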

How the data were processed

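GP muscle of 6 mice was measured by bulk RNA-Seq. Per the labels, the authors used Trimmomatic 0.39 for trimming, HISAT2 2.1.0 for alignment to mm10 and featureCounts 1.6.2 for counting. The deposited values are whole-number counts per gene without normalization. The annotation, the strand setting and the treatment of reads with several matches are not given in the sources used here. Total counts per library were 33860001 to 48839910, and libraries of 1 group differed beyond counting error (chi-square per degree of freedom over the members 15.0 to 41.2).

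The quasi-likelihood test of edgeR 4.0.16 was run in R 4.3.3 (TMM, filterByExpr, glmQLFit, glmQLFTest, two-sided) over all genes, with Benjamini-Hochberg adjustment over the 14180 genes tested and a threshold of 0.05. The study used DESeq with a fold change over 2, and DESeq2 1.42.0 was an alternative. CPM used TMM factors. Single shares were compared by exact permutation tests. Members, lists and tests were chosen with earlier results of these data known. Named genes are paralogs, stalk genes, Rpsa, Fau, the called members with the smallest p in each direction, the 3 highest and lowest levels per kb, genes of ribosomal disease and the 5S RNP, and in each related list the 2 smallest p in each direction with Eef1a1, Eef1a2, Myc, Mtor and Larp1. Rpl29, Rpl21, Rps27a, Rpl15, Rpl7a and Rps2 were named after their values were seen. Transcript lengths and shared stretches came from GENCODE M21 (the APPRIS principal transcript, the shortest where several tied). Windows at gene starts came from RefSeq. A few genes that these rules name are not reported here. The fits were also run on simulated counts, and no result of that check is given here. Alternatives were other scalings, other filters, DESeq2, a robust fit, a replicate block and leaving out each library.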

Additional observations from a re-analysis of the deposited data

How the results depend on the processing

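Of the 10 members called, the alternatives in size factors (DESeq2), filter of at least 10 counts, TMM without the members, robust fit and the DESeq2 Wald test kept all 10, and DESeq2's test called 11. With upper quartile scaling 9 were kept and without a filter 7. Scaling by total counts moved most values: the members higher in the libraries labelled cKO went from 7 to 0 and those higher in Ctrl from 3 to 25, all genes to 673 and 4074, those with a fold over 2 to 157 and 1023, the related lists to 3 and 28, and the median log2 fold change of the members to -0.18. The median of all genes then was -0.27, and the members' median stood 0.09 above that of all genes under both scalings. With TMM the members' median was 0.08, under the 0.11 of the 3174 abundant genes. The log2 ratio of the summed member levels was -0.182 with total counts and 0.051 with upper quartile scaling, and Rpl24 reversed to -0.00062.

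The replicate numbers did not pair the mice (correlations of same-numbered libraries 0.084, -0.215 and -0.002). With the replicate block, 927 and 972 genes, 0 members higher in the libraries labelled cKO and 9 genes of the related lists higher there were called, and of the members Rpl3 and Rps13 were. Where 0 members were called higher in cKO-labelled libraries, edgeR gave an unadjusted p under 0.05 in that direction to 0 with total counts, to 8 with the block and, without Ctrl 1, Ctrl 2, cKO 1 or cKO 3, to 8, 11, 9 and 6, while DESeq2 called 8 with all libraries.

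Fits that left out 1 library called 766 to 1777 genes higher in cKO-labelled libraries and 788 to 1808 higher in Ctrl-labelled ones, with a fold over 2 172 to 387 and 398 to 685. They called 0 to 6 members higher in the former and 1 to 3 in the latter, with a fold over 2 0 to 1, and 3 to 41 and 3 to 6 genes of the related lists. The cause of these shifts was not tested.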

Other observations

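Over the 6 libraries, genes outside the members whose log2 CPM was most like the mean log2 CPM of the members included Adipor2 (Pearson r = 0.996), Ocrl (0.994), Trex1 (0.994) and Tbx15 (0.992), out of 14096 genes searched. The mean of the members ranged over 0.086 on the log2 scale, and with 6 points and so many genes searched this is a description.

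Of 7 pseudogene symbols with -ps in the tables, Rpl14-ps1 alone had many counts, at 1151 to 1461 per library, and the others had at most 72.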
